A study of Saccharomyces cerevisiae with 4 samples.

Results

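The acetate and carboxylate transporters examined here were the 4 entries whose gene symbol is *ADY2*, *ATO2*, *ATO3* or *JEN1*, of 6549 entries listed for each library. The set was chosen by gene family and selected on the footprint level of *ADY2*, one of the highest of all entries, so that level is given as a description. The libraries came from diploid SK1 cells, a budding yeast background that sporulates efficiently, harvested 4 h after transfer to acetate sporulation medium and a brief exposure to cycloheximide, which stalls ribosomes on mRNA. One genotype was *dbp1∆::KANMX6*, in which a cassette for drug resistance replaces both copies of the *DBP1* ORF, and the other was wild type. The diploid strains of these genotypes that the paper lists carry the auxotrophic alleles *trp1::hisG* and *his3::hisG*, together with *ura3*, *lys2* and *ho::LYS2*. Some carry *leu2::hisG* and others *LEU2*, in part with a tagged *DED1*, and the paper does not name the strains sequenced here. The authors report that the cassette also lowers translation of the neighboring gene *MRP51*, which encodes a mitochondrial ribosome protein. Loss of *DBP1* and lower *MRP51* therefore cannot be told apart in these libraries. In separate experiments the authors report that added *MRP51* rescued the respiratory growth, sporulation and polysome phenotypes, and that added *DBP1* did not. Ribosome footprints, the mRNA pieces covered by ribosomes, and mRNA fragments were each sequenced in 1 library per genotype. Because each assay was thus done once in each genotype, the spread between cultures is unknown and 0 tests between genotypes were made.

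Values are RPKM, reads scaled to ORF length and library size (mapped reads), and are therefore per length and comparable between genes. Translation efficiency (TE) is footprint RPKM divided by mRNA RPKM. Intervals in parentheses are 95% intervals for counting error alone, from reads inferred from the RPKM values. The inferred depth was 3260000 footprint and 4775000 mRNA reads in *dbp1∆::KANMX6* cells, against 4105000 footprint and 2220000 mRNA reads in wild-type cells. The deleted gene checks the labels, with *DBP1* at 6.9 RPKM of footprints and 2.9 RPKM of mRNA in *dbp1∆::KANMX6* cells, against 435.2 and 131.5 RPKM in wild type. RPKM is relative to each library, and the median entry was itself 1.27-fold higher for footprints (log2 0.35) and 1.29-fold higher for mRNA (log2 0.37) in *dbp1∆::KANMX6* cells. The changes of the transporters are therefore also given relative to that entry, and so are some changes of other genes that this moves across 2-fold or 1. A ratio under 1.27 for footprints or under 1.29 for mRNA lies below the median entry, whichever side of 1 it is on.

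Sporulating yeast take up acetate as their carbon source, convert it to acetyl-CoA, and pass it to respiration, the glyoxylate cycle and gluconeogenesis. Sporulating cells also break down amino acids and release ammonia. *ADY2* (YCR010C, chromosome III) encodes the plasma membrane acetate transporter, a multi-pass protein of the family also known from acetate carriers of bacteria. Cells lacking it tend to form asci with a reduced number of spores, from which its name derives. *ATO2* (YNR002C, chromosome XIV) and *ATO3* (YDR384C, chromosome IV) belong to the same family and are described in the files as probable exporters of ammonia. *JEN1* (YKL217W, chromosome XI) is unrelated in sequence and encodes the permease for lactate and pyruvate, a gene repressed by glucose. The ORFs are 852 bp for *ADY2*, 849 bp for *ATO2*, 828 bp for *ATO3* and 1851 bp for *JEN1* in the S288C assembly R64. No entry that pools several ORFs (0 of 199) names any of them.

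*ADY2* was one of the most heavily translated genes of these cells. Its footprints reached 15180.3 RPKM in *dbp1∆::KANMX6* cells, where it was the highest of all entries, and 16365.9 RPKM in wild type, where it ranked 4. *ADY2* mRNA was 9393.0 RPKM in *dbp1∆::KANMX6* cells (rank 4) and 12513.1 RPKM in wild type (rank 5). This transporter gene took 1.29% of all mapped footprint reads in *dbp1∆::KANMX6* cells (Wilson interval 1.28 to 1.31%) and 1.39% in wild type (1.38 to 1.41%). Its level was 408 times that of the median entry for footprints in *dbp1∆::KANMX6* cells and 562 times in wild type. Both ranks stood when entries naming several ORFs were left out.

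The other 3 transporters were expressed at lower levels, which *ADY2* exceeded 17.3-fold to 176-fold across the 4 libraries. *ATO3* footprints were 387.8 RPKM in *dbp1∆::KANMX6* cells and 462.9 RPKM in wild type, and its mRNA was 184.6 RPKM in *dbp1∆::KANMX6* cells and 181.9 RPKM in wild type. *ATO2*, the paralog of *ADY2*, had 148.2 RPKM of footprints in *dbp1∆::KANMX6* cells and 156.6 RPKM in wild type. Its mRNA was 100.5 RPKM in *dbp1∆::KANMX6* cells and 122.3 RPKM in wild type. *JEN1* mRNA exceeded that of both *ATO2* and *ATO3* in each genotype, while its footprints did not exceed those of *ATO3* in either. *JEN1* mRNA was 440.8 RPKM in *dbp1∆::KANMX6* cells and 723.0 RPKM in wild type. *JEN1* footprints were only 86.2 RPKM in *dbp1∆::KANMX6* cells, against 258.7 RPKM in wild type. The lowest of these 16 values by reads was *ATO2* mRNA in wild type, with an inferred 231 reads, so none was near the floor of 3 reads.

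**Figure D1:**
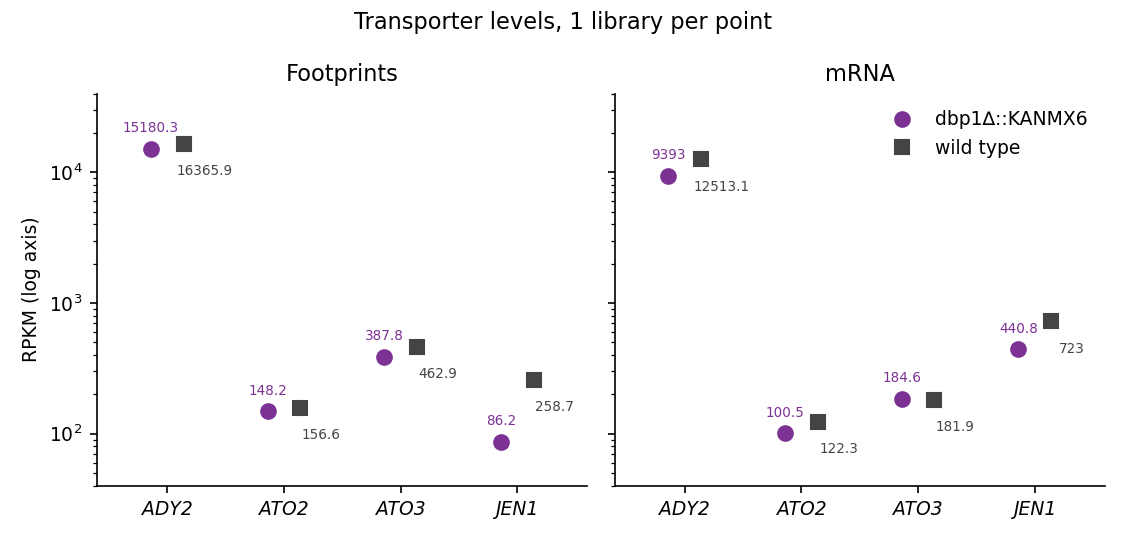
RPKM of the 4 transporters on a log axis, footprints at left and mRNA at right, with 1 library per point (purple circles, *dbp1∆::KANMX6*, and grey squares, wild type). *ADY2* lies at 9393.0 RPKM or above in all 4 libraries, and *JEN1* footprints show the widest gap between genotypes, at 86.2 RPKM in *dbp1∆::KANMX6* cells and 258.7 RPKM in wild type.

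The order of the members by footprints was *ADY2*, *ATO3*, *ATO2* and *JEN1* in *dbp1∆::KANMX6* cells, and *ADY2*, *ATO3*, *JEN1* and *ATO2* in wild type. *ADY2* footprints exceeded those of the next member, *ATO3*, 39.1-fold (36.8 to 41.7) in *dbp1∆::KANMX6* cells and 35.4-fold (33.6 to 37.2) in wild type. The exchange at the lower end was larger than counting error in both libraries. *ATO2* was 1.72-fold above *JEN1* (1.51 to 1.96) in *dbp1∆::KANMX6* cells, whereas *JEN1* was 1.65-fold above *ATO2* (1.50 to 1.82) in wild type. For mRNA the order was *ADY2*, *JEN1*, *ATO3* and *ATO2* in both genotypes. The smallest step between neighbors in that order, *ATO3* over *ATO2*, was 1.84-fold (1.63 to 2.08) in *dbp1∆::KANMX6* cells and 1.49-fold (1.25 to 1.76) in wild type.

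**Figure D2:**
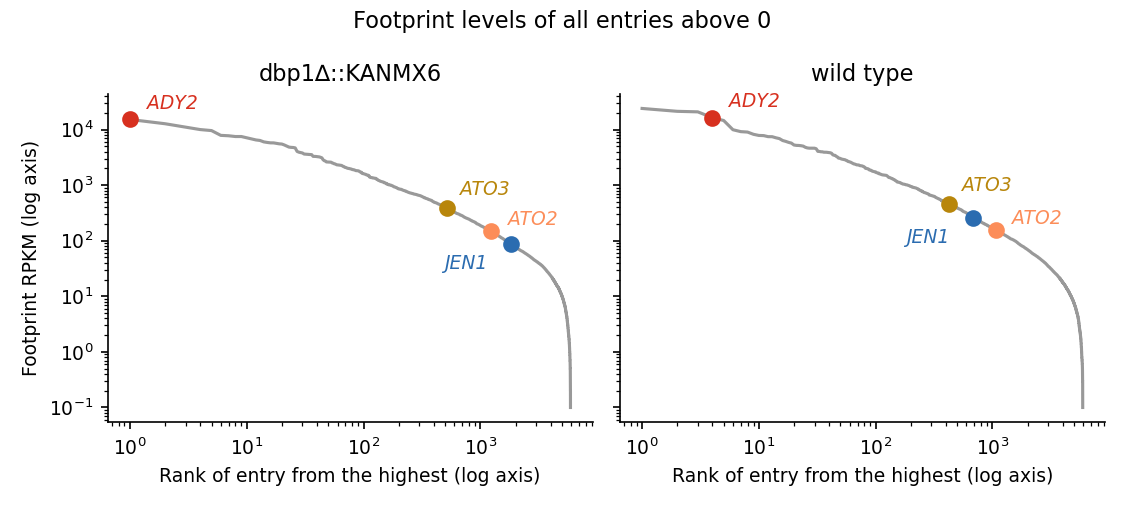
Footprint RPKM of every entry above 0 against its rank, both on log axes, in *dbp1∆::KANMX6* cells at left and wild-type cells at right, with the 4 transporters marked. *ADY2* sits at rank 1 in *dbp1∆::KANMX6* cells and rank 4 in wild type, and *JEN1* sits at rank 1818 in *dbp1∆::KANMX6* cells and rank 684 in wild type.

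Translation efficiency separated the family of *ADY2* from *JEN1*. The TE of *ATO3* was 2.10 (1.91 to 2.31) in *dbp1∆::KANMX6* cells and 2.54 (2.26 to 2.87) in wild type, above 96.1% of entries in *dbp1∆::KANMX6* cells and 97.9% in wild type. *ADY2* had a TE of 1.62 (1.59 to 1.64) in *dbp1∆::KANMX6* cells and 1.31 (1.29 to 1.33) in wild type. *ATO2* lay close to it, with a TE of 1.47 (1.28 to 1.70) in *dbp1∆::KANMX6* cells and 1.28 (1.09 to 1.50) in wild type. *ADY2* and *ATO2* were not separable by TE beyond counting error, since their ratio was 1.10 (0.955 to 1.26) in *dbp1∆::KANMX6* cells and 1.02 (0.875 to 1.19) in wild type. *JEN1* TE was 0.196 (0.178 to 0.214) in *dbp1∆::KANMX6* cells, above only 7.39% of entries, and 0.358 (0.338 to 0.379) in wild type, above 16.05%. The median entry had a TE of 0.705 in *dbp1∆::KANMX6* cells and 0.743 in wild type. Between *ATO3* and *JEN1*, the highest and lowest of the 4 genes, TE spanned 10.7-fold (9.42 to 12.3) in *dbp1∆::KANMX6* cells and 7.11-fold (6.24 to 8.11) in wild type.

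**Figure D3:**
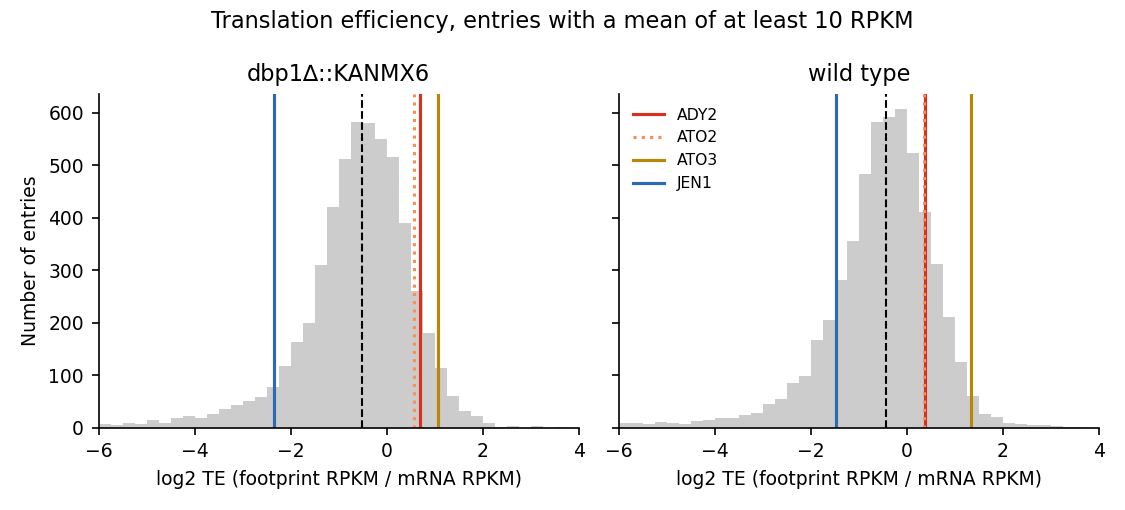
Number of entries by log2 TE, with *dbp1∆::KANMX6* at left and wild type at right for entries averaging 10 RPKM or more across libraries. The dashed line is the median entry, and the colored lines place *ADY2*, *ATO2* and *ATO3* above it and *JEN1* below it in both genotypes, at a TE of 0.196 in *dbp1∆::KANMX6* cells and 0.358 in wild type.

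*JEN1* was the member that differed most between genotypes. Its footprints were 3.00-fold lower in *dbp1∆::KANMX6* cells (2.72 to 3.31), with an inferred 520 reads in *dbp1∆::KANMX6* cells and 1966 in wild type, and 3.82-fold lower relative to the median entry. From the largest decrease, *JEN1* footprints ranked 187 of 5453 entries. *JEN1* mRNA was 1.64-fold lower (1.56 to 1.72) and its TE 1.83-fold lower (1.64 to 2.04). On the log2 scale, mRNA made up 45.0% of the footprint decrease of *JEN1* and TE 55.0%, but relative to the median entry mRNA made up 56.1% and TE 43.9%, so which part was larger depended on scaling. *JEN1* was the 1 member of 4 with footprints at least 2-fold lower, compared with 8.23% of all entries, and 0 members had footprints at least 2-fold higher, compared with 15.1%. By mRNA 0 members were at least 2-fold lower, against 4.18% of entries, and 0 were at least 2-fold higher, against 16.6%. By TE 0 members were at least 2-fold lower, against 6.07%, and 0 were at least 2-fold higher, against 3.43%. Relative to the median entry, *JEN1* mRNA was also past 2-fold, at 2.12-fold lower, compared with 8.43% of entries at least 2-fold lower and 7.1% at least 2-fold higher on that scale. For footprints the shares on that scale were 12.8% lower and 6.36% higher, so the direction that held more entries turned with scaling. By TE 0 members were past 2-fold on that scale, against 5.34% of entries lower and 3.91% higher.

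The 3 relatives in the *ADY2* family showed smaller differences. *ADY2* footprints were 1.08-fold lower in *dbp1∆::KANMX6* cells (1.06 to 1.09) and its mRNA 1.33-fold lower (1.31 to 1.35). Its TE ratio, *dbp1∆::KANMX6* over wild type, was accordingly 1.24 (1.21 to 1.26), the largest of the 4. These intervals are narrow because *ADY2* had an inferred 23668 reads or more in each library, and they do not include differences between cultures or library preparations. *ATO2* had nearly the same set of ratios, 0.946 for footprints (0.83 to 1.08), 0.822 for mRNA (0.695 to 0.967) and 1.15 for TE (0.937 to 1.42), of which those for footprints and TE include 1. *ATO3* footprints were 1.19-fold lower (1.10 to 1.29) while its mRNA ratio was 1.01 (0.892 to 1.16). This gave a 1.21-fold lower TE (1.04 to 1.41), or 1.15-fold lower relative to the median entry. The *ATO3* mRNA ratio became 0.785 when set against the median entry and 0.788 with trimmed-mean scaling, so its direction depended on scaling. Relative to the median entry, all 4 transporters were lower in *dbp1∆::KANMX6* cells for both footprints and mRNA, by 1.37-fold and 1.72-fold for *ADY2*, 1.34-fold and 1.57-fold for *ATO2*, and 1.52-fold and 1.27-fold for *ATO3*. Of all entries, 3.41% lay below *JEN1* in footprint ratio and 7.24% in mRNA ratio. The corresponding shares for *ADY2* were 26.6% and 13.2%.

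**Figure D4:**
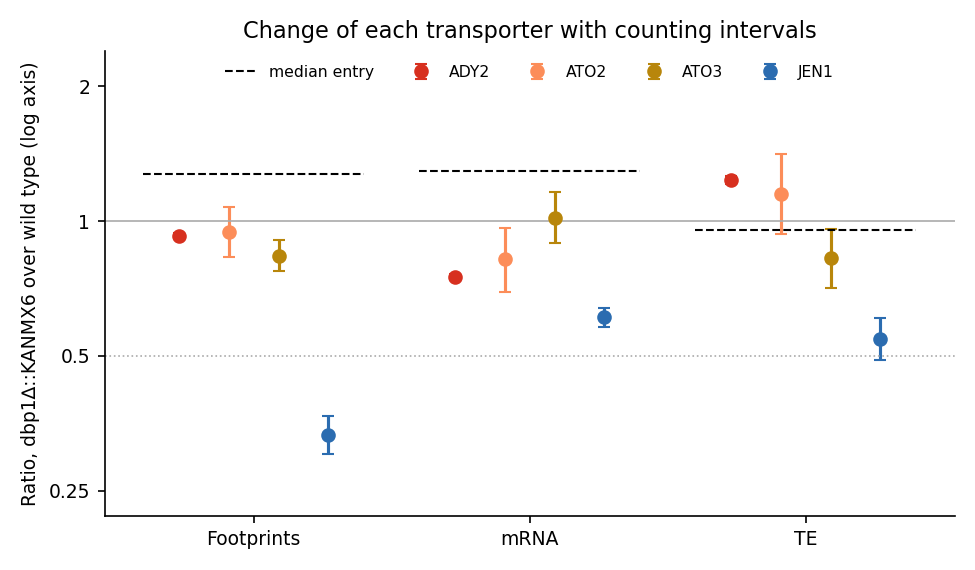
Ratio of *dbp1∆::KANMX6* over wild type on a log axis for footprints, mRNA and TE of each transporter, with 95% intervals for counting error. Dashed lines mark the median entry (1.27 for footprints, 1.29 for mRNA, 0.953 for TE), and *JEN1* footprints, at a ratio of 0.333, are the single point below the dotted line at 0.5.

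Genes with the most similar profile were sought over the 4 libraries, as the root-mean-square difference of log2 RPKM after each profile was centred on its own mean, among 3045 other entries. The 4 values of a profile share libraries and scaling, so these likenesses are descriptions. *ADY2* and *ATO2*, 93.5-fold to 105-fold apart in level, had profiles that differed by 0.06, and *ATO2* was the entry ranked 5 for likeness to *ADY2*. How reads matching both of these paralogs were assigned is not given in the sources used here, and the part of such reads in the *ATO2* levels, in its TE and in this likeness was not tested. The 3 entries closest to *ADY2* were *SDS24* (0.03), *PIM1* (0.04), the mitochondrial Lon protease, and *DDR2* (0.05), a stress-induced gene. *DDR2* and *PIM1* were also closest to *ATO2* (0.03 each), followed by the entry shared by YBR089C-A and YBR090C (0.05). *ATO3* was closest to *MOT2* (0.03), a subunit of the Ccr4-Not complex, *FMP21* (0.03) and *OST4* (0.06), a subunit of oligosaccharyltransferase. Such profiles were common, with 234 entries within 0.25 of *ADY2*, 301 of *ATO2* and 91 of *ATO3*. *JEN1* had 11 within that distance, of which YOR019W (0.12), *ADY4* (0.13), a gene of the meiotic spindle pole body, and *GDS1* (0.13) were closest.

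Genes that act on the substrates of these transporters were examined as lists chosen with earlier results of these data known. Of 7 genes for acetyl-CoA formation and the carnitine shuttle, which carries acetyl groups between compartments, 5 had lower mRNA in *dbp1∆::KANMX6* cells, as *ADY2* did. On the log2 scale their median was −0.33 in footprints and −0.57 in mRNA, beside 0.35 and 0.37 over all entries, and 6 of 7 lay below the median entry in footprints. *ACS1*, the acetyl-CoA synthetase that acts on imported acetate, was the highest of them, and *ADY2* footprints were 1.52 times those of *ACS1* in *dbp1∆::KANMX6* cells and 1.79 times in wild type. The footprint ratio of *ACS1* was 1.09 (1.08 to 1.10), or 0.856 relative to the median entry, whereas its mRNA was 1.49-fold lower in *dbp1∆::KANMX6* cells (1.46 to 1.53). *YAT1*, a carnitine acetyltransferase, was the 1 of 7 past 2-fold as deposited, with 3.14-fold lower mRNA (2.87 to 3.43), and relative to the median entry 2 were past it in each assay, *YAT1* and *YAT2* in footprints and *YAT1* and *CAT2* in mRNA. The 8 genes of the glyoxylate cycle and gluconeogenesis had median log2 changes of 0.20 for footprints and 0.38 for mRNA, and as deposited 0 passed 2-fold in either assay. Relative to the median entry the footprint median became −0.15 and 1 gene, *CIT2*, was past 2-fold in footprints. *CIT2*, the peroxisomal citrate synthase, had the highest wild-type footprints of these 8, and they were 1.78-fold lower in *dbp1∆::KANMX6* cells (1.74 to 1.82), or 2.27-fold relative to the median entry.

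For lactate and pyruvate, the substrates of *JEN1*, 7 genes had median log2 changes of −0.01 for footprints and 0.09 for mRNA, and the mRNA median became −0.28 relative to the median entry. *DLD1*, a mitochondrial D-lactate dehydrogenase, was the 1 past 2-fold as deposited, with footprints of 40.1 RPKM in *dbp1∆::KANMX6* cells and 86.1 RPKM in wild type, 2.15-fold lower (1.84 to 2.50). *MPC3* (listed as *FMP43*), a subunit of the mitochondrial pyruvate carrier, was highest and had 1.98-fold lower footprints (1.87 to 2.09). Relative to the median entry, *MPC3* at 2.51-fold and *DLD3* at 2.20-fold lower were past 2-fold in footprints as well, and *DLD1* and *DLD3* in mRNA. Among 11 regulators of non-fermentable carbon use and of transporter turnover, 10 had higher footprints in *dbp1∆::KANMX6* cells, with a median log2 change of 0.59, and 8 lay above the median entry. By mRNA 8 of the 11 were higher and 3 lower, with a median log2 change of 0.20, but 8 lay below the median entry, and the median relative to it was −0.17. The exception in footprints was *CAT8*, the highest of them in wild-type footprints and a transcriptional activator of *JEN1*, with footprints of 64.5 RPKM in *dbp1∆::KANMX6* cells and 117.7 RPKM in wild type, 1.82-fold lower (1.69 to 1.97). Its mRNA was 1.69-fold lower (1.52 to 1.88), beside 1.64-fold for *JEN1* mRNA, and relative to the median entry *CAT8* was past 2-fold lower in both assays. The part of *CAT8* in the *JEN1* values was not tested. *MIG1*, a glucose repressor, was the 1 of 11 past 2-fold in footprints as deposited, at a ratio of 3.54 (2.48 to 5.14), and 0 were in mRNA. In TE the 1 past 2-fold as deposited was *ADR1*, a transcriptional activator named after its values were seen. The TE of *ADR1* was 0.986 in *dbp1∆::KANMX6* cells and 0.349 in wild type. Its footprint ratio was 1.55 (1.44 to 1.68), and its mRNA was 1.82-fold lower (1.71 to 1.94), or 2.35-fold relative to the median entry. On that scale *MIG1* was also past 2-fold in TE, at a ratio of 2.08.

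Of the 3 ammonium permeases, which import what *ATO2* and *ATO3* are thought to export, *MEP2* was highest, with footprints of 262.2 RPKM in *dbp1∆::KANMX6* cells and 318.6 RPKM in wild type. *MEP3* had a footprint ratio of 7.35 (4.23 to 13.2), from an inferred 92 reads in *dbp1∆::KANMX6* cells and 16 in wild type, and an mRNA ratio of 3.12 (2.26 to 4.34). Relative to the median entry, *MEP1* mRNA was past 2-fold as well, at 2.31-fold lower. In TE *MEP1* and *MEP3* were past 2-fold higher as deposited, each at a ratio of 2.36. Of the weak acid exporter genes and the channel gene *FPS1*, 6 in all, 4 passed the filter at a mean of 10 RPKM and as deposited 0 of these were past 2-fold in footprints or mRNA. *TPO2* was the highest of them and had 1.82-fold lower footprints (1.65 to 2.0). Relative to the median entry, *TPO2* at 2.31-fold and *FPS1* at 2.22-fold lower were past 2-fold in footprints, and *TPO2* in mRNA. In TE *PDR12* was past 2-fold higher, on an inferred 13 footprint reads in *dbp1∆::KANMX6* cells and 9 in wild type. The *MCH* genes, which resemble mammalian monocarboxylate carriers, and *ESBP6* had higher footprints in 4 of 5 cases, highest in level for *MCH1* and past 2-fold for *MCH4*, at a ratio of 2.45 (2.08 to 2.88) that became 1.93 relative to the median entry. *MCH5* was 3.13-fold lower (1.02 to 13.1) on an inferred 4 reads in *dbp1∆::KANMX6* cells and 16 in wild type. On the same few reads its TE was past 2-fold lower, at a ratio of 0.217.

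**Figure D5:**
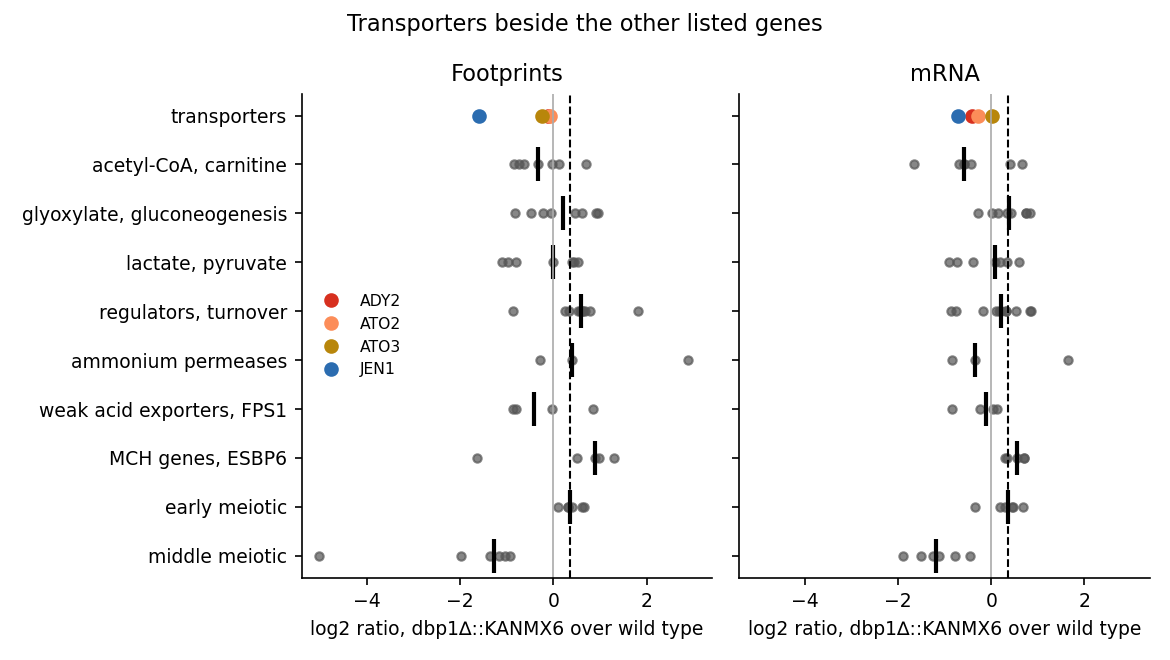
log2 ratio of *dbp1∆::KANMX6* over wild type for footprints at left and mRNA at right, with the 4 transporters in color in the top row and 1 grey point per gene in each list under it. Black ticks are list medians and the dashed line is the median entry, and the middle meiotic genes lie lowest, with medians of −1.26 for footprints and −1.18 for mRNA.

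The stage of the cells was read from meiotic markers, because carbon transporters were measured at a single time. All 6 early meiotic genes were expressed in both genotypes, at 629.3 to 2321.4 RPKM of footprints in *dbp1∆::KANMX6* cells and 424.6 to 2176.1 RPKM in wild type, with *IME1* highest in each. Their median log2 footprint change was 0.36, beside 0.35 over all entries, so it was 0.01 relative to the median entry. All 6 middle meiotic genes, which are induced around the divisions, had lower footprints in *dbp1∆::KANMX6* cells. Of them, 5 were at least 2-fold lower as deposited, against 8.23% of all entries, and 6 relative to the median entry, against 12.8%. By mRNA all 6 were lower. At least 2-fold lower in mRNA were 4 as deposited, against 4.18% of entries, and 5 relative to the median entry, against 8.43%. Their summed footprint level was 4796.8 RPKM in *dbp1∆::KANMX6* cells and 10248.7 RPKM in wild type, of which *SPS4* alone held 3098.4 and 5871.2 RPKM. *SPS4* footprints were 1.89-fold lower (1.85 to 1.94). In footprints *NDT80*, the transcriptional activator of these genes, was 2.25-fold lower (2.16 to 2.36), and *CLB1*, a B-type cyclin, 3.93-fold lower (3.62 to 4.27). *SMK1* was 2.56-fold lower (2.35 to 2.79) and *SPR3* 2.05-fold lower (1.98 to 2.12). *SPS1*, a sporulation kinase, was 32.5-fold lower in footprints (25.4 to 41.8), from an inferred 68 reads in *dbp1∆::KANMX6* cells and 2768 in wild type. By mRNA the decreases were 1.37-fold for *NDT80*, 2.36-fold for *CLB1* and 2.86-fold for *SPS4*. They were 1.71-fold for *SMK1*, 2.16-fold for *SPR3* and 3.73-fold for *SPS1*. The TE ratio was 0.115 for *SPS1* and 1.51 for *SPS4*, so footprints and mRNA did not change alike. *JEN1* footprints were also lower in *dbp1∆::KANMX6* cells, and the part of meiotic stage, or of lower *MRP51*, in that value was not tested. With 1 library per genotype at a single time, whether *JEN1* and these markers change together cannot be told. In bulk libraries, fewer cells at a stage and less RNA per cell cannot be told apart.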

How the data were processed

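Footprints and mRNA were measured in SK1 cells of 2 genotypes, 1 library each. The values the authors deposited are RPKM with 1 decimal, obtained by aligning reads to an SK1 genome and scaling the reads of each ORF to its length and to library size (mapped reads). The submitters' processing notes name CASAVA, bcl2fastq 2.17 and Bowtie2. Aligner settings, annotation, strand and the handling of reads with several matches are not given in the sources used here, so reads matching both *ADY2* and *ATO2*, which are paralogs, may have been shared between them.

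Ratios are *dbp1∆::KANMX6* over wild type with a pseudocount of 0, summarised over the 5552 entries averaging 10 RPKM or more, where the values needed were above 0. R64 locus names matched 5771 of 6549 entries and gave ORF lengths, and the coordinates of that build are not used. The depth of each library was the number of reads that put most RPKM values on whole reads, within the rounding of 0.05 RPKM, beyond chance, judged on ORFs shorter than 500 bp with values below 20 RPKM. It placed 63.1 to 67.5% of values on whole reads, against 6.98 to 14.8% by chance, so reads are approximate. Intervals are exact conditional binomial for ratios of 2 read numbers, log-scale Poisson for ratios of TE, and Wilson for shares. Whether reads carried molecular identifiers is not given in the sources used here. PCR copies may therefore count as separate reads, and intervals and the floor of 3 reads cover counting error only. Procedures were tested on simulated data.

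The members and lists were chosen with earlier results of these data known. Genes named are the members, in each list the entry with the highest wild-type footprints and those past 2-fold in footprints or mRNA (averaging 10 RPKM or more), and the 3 entries most like each member (averaging 50 RPKM or more). Others are named for TE, for changes relative to the median entry, or after their values were seen. Alternatives were pseudocounts of 1 and 0.1, 3 scalings, filters at 1 and 50 RPKM or none, and thresholds of 1.5-fold and 4-fold. Python 3.11.15, NumPy 2.4.6, pandas 2.3.3 and SciPy 1.17.1 were used.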

Additional observations from a re-analysis of the deposited data

How the results depend on the processing

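Depth limits *ATO2* most, and the 1 library per genotype limits every value. No paired analysis was possible because each group holds 1 library. Both pseudocounts left all 12 ratios of the transporters within their counting intervals. Centred on the median entry, the ratios of *ADY2*, *ATO2*, *ATO3* and *JEN1* were 0.729, 0.744, 0.659 and 0.262 for footprints and 0.581, 0.636, 0.785 and 0.472 for mRNA, and the *ADY2* TE ratio was 1.30. With trimmed-mean scaling they were 0.728, 0.743, 0.658 and 0.262 for footprints and 0.583, 0.638, 0.788 and 0.474 for mRNA. Scaling without the 50 highest and the mitochondrial entries gave *ADY2* ratios of 0.897 for footprints and 0.722 for mRNA, and the other ratios stayed within their intervals. No ratio past 2-fold changed direction.

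Past 2-fold, footprints were higher for 822 entries and lower for 449, mRNA for 922 and 232, and TE for 187 and 331. Centring gave 347 higher and 697 lower for footprints and 394 and 468 for mRNA, and trimmed-mean scaling 344 and 699 for footprints and 402 and 463 for mRNA. A mean of at least 50 RPKM left 375 higher for footprints, 354 higher for mRNA, and 91 higher and 156 lower for TE, among fewer entries. At 1.5-fold the counts were 1977 and 760 for footprints, 1999 and 506 for mRNA, and 581 and 984 for TE, and at 4-fold 66 and 117, 57 and 45, and 20 and 58. Of 216 list medians under other settings, 170 moved by at most 0.1 on the log2 scale and 46 by more. Of 36 positions of the transporters among all entries under other filters, 30 moved by under 5 percentage points, and the other 6 all came at a mean of at least 50 RPKM.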

Other observations

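The genes beside each transporter were compared as groups of 4, the protein-coding genes on either side by R64 order, 2 on each side. Footprint ratios, *dbp1∆::KANMX6* over wild type, ran from 0.915 to 1.60 around *ADY2*, from 1.16 to 1.72 around *ATO2*, from 0.670 to 2.34 around *ATO3* and from 0.424 to 2.09 around *JEN1*. The lowest of these 16 belonged to *SRY1*, next to *JEN1* and named after its values were seen, with 56.7 RPKM of footprints in *dbp1∆::KANMX6* cells and 133.8 RPKM in wild type. Its mRNA ratio was 0.891. Each of the other 3 genes around *JEN1* had footprints above wild type, at ratios of 1.30 to 2.09 beside 1.27 for the median entry. The mRNA ratios around *JEN1* ran from 0.891 to 1.55, against 0.610 for *JEN1* itself and 1.29 for the median entry. Around *ATO2* all 4 genes had mRNA ratios of 1.36 to 2.01, against 0.822 for *ATO2*.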
